A study of Mus musculus with 12 samples.

Results

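Interferon-stimulated genes were followed in kidneys of lean control mice, diabetic mice and diabetic mice given a herbal extract. They comprise 41 of the 57490 genes in the count table, taken by gene name from a list of symbols. Of these, 40 were found under the listed symbol and 1, listed as Ddx58, was found by its gene identifier ENSMUSG00000040296 under its newer symbol Rigi. By role they fall into 27 antiviral effectors with their transcription factors and regulators, 4 sensors of foreign RNA or DNA, and 10 genes known for induction by interferon-gamma, which encode GTPases, immunoproteasome subunits and a peptide transporter. All 41 had enough counts to be tested, among 17431 genes tested.

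The study asked what changes in the diabetic kidney and what the extract changes there, by RNA sequencing of polyA RNA from male mice 13 weeks of age. Ctrl was db/m on the BKS background, db/+ heterozygotes that 1 of the labels calls wild-type, Model was db/db (BKS. Cg-Dock7m +/+ Leprdb/JNju), which lacks a working leptin receptor and was taken into the study by random blood glucose, and YHY was db/db given Yiqi Huoxue Yangyin Decoction. The YHY mice received a water extract of 6.24 g/mL by gavage, at 50 µL for each 10 g a mouse weighed, once daily for 4 weeks. Whether that weight is of crude drug is not given in the sources used here, and the study's methods name several doses and another concentration, so the dose of these mice is open. The protocol gives Ctrl and Model the same volume of purified water. Each group had 4 mice, 1 library a mouse, and the labels give whole kidney tissue while the design text speaks of renal cortex.

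Interferons are cytokines released when a cell meets foreign nucleic acid or when lymphocytes are activated. Type I and type III interferons act through Jak1 and Tyk2, and Stat2 and Irf9 take part in binding the interferon-stimulated response element, or ISRE, while interferon-gamma acts through Jak1 and Jak2 and the gamma-activated site, or GAS. In the kidney these genes are known from lupus nephritis, viral infection and other inflammatory injury, in tubular, endothelial and immune cells alike.

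Total counts were 33276634, 29632718, 33236670 and 32677732 in Ctrl 1 to 4. Model 1 to 4 had 29784346, 26356745, 26095074 and 24415658, and YHY 1 to 4 had 25310437, 25149764, 26187322 and 29698342. Ctrl libraries were thus deeper than 6 of the 8 db/db libraries, with Model 1 and YHY 4 inside the Ctrl range. Transcripts of the mitochondrial genome took 18.6%, 22.7%, 18.4% and 18.5% of counts in Ctrl 1 to 4, 41.2%, 58.9%, 55.3% and 53.4% in Model 1 to 4, and 53.8%, 64.6%, 54.6% and 54.2% in YHY 1 to 4. The widest 95% Wilson interval of these shares was 0.0396 percentage points. Every db/db kidney had a higher share than every Ctrl kidney. With the mitochondrial genome left out of the counts, 3 members were called higher and 6 lower in Model against Ctrl and 10 and 2 in YHY against Ctrl, the same numbers as with it, and 8 in place of 6 were called higher in YHY against Model. Model 1 stood apart from its group, with a chi-square per degree of freedom of 104 to 150 against the other Model libraries, which differed from each other by 22.3 to 33. Ctrl 4 too differed more from the other Ctrl libraries, by 67.4 to 119, than those did from each other, by 18.6 to 49.3. Pairs of YHY libraries gave 35.3 to 103. Kidney epithelium was present in each library, with no marker at 0 among 6 of the proximal tubule, 5 of the distal nephron and collecting duct and 5 of the podocyte.

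Levels are CPM, counts scaled to a common library total, after trimmed mean of M values (TMM) scaling, which sets the typical gene level between libraries, and lists of 4 values run from mouse 1 to mouse 4. A floor of 3 counts corresponded to 0.0683 to 0.166 CPM. Differences are log2 fold changes ± standard error from edgeR's quasi-likelihood test, with p-values adjusted by the Benjamini-Hochberg method over all genes tested. A gene was called where the adjusted p was under 0.05. Under scaling by library size alone the median gene stood at -0.39 in Model against Ctrl and at -0.33 in YHY against Ctrl, in place of 0.04 and 0.10, so that directions are relative to the typical gene. Upper-quartile scaling put these medians at 0.14 and 0.22.

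For 31 members, 35 promoters were found, a pair each for Ifit2, Irf1, Irf9 and Gbp3, among the RefSeq sequences of build GRCm38.p6, which run from 250 bases before to 50 bases after the start of each gene. The members without an entry were Dhx58, Ifi27, Iigp1, Mx1, Mx2, Oas2, Parp14, Rtp4, Usp18 and Zbp1. The core of the ISRE, searched as GAAANNGAAA on both strands, was in 16 of the 35 promoters, or 45.7%, against 1131 of all 32851 promoters, or 3.44%. The GAS, searched as TTCNNNGAA, reads the same on both strands and was in 8 of the 35, or 22.9%, against 2726 of all promoters, or 8.30%. Of the 35, 4 held both motifs and 15 held neither, and matches to the core that overlap each other were counted within 1 promoter. By class, the core and the GAS were in 9 and 5 of 23 antiviral promoters, 2 and 0 of 2 sensor promoters, and 5 and 3 of 10 promoters of the interferon-gamma class. A match is a description of letters and not a bound site. The 7 promoters shown belong to members that passed the test in the diabetic kidney or with the extract and that hold the ISRE core, shown to let a reader see where the core lies.

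Each is written 5′ to 3′ on the strand of its gene, with ISRE cores in capitals. Ifit3b lies at chr19:34607707-34608006 on the plus strand, Oas3 at chr5:120777610-120777909 on the minus strand and Stat2 at chr10:128270248-128270547 on the plus strand. Rigi lies at chr4:40239776-40240075 on the minus strand and Gbp2 at chr3:142620413-142620712 on the plus strand. Igtp lies at chr11:58199306-58199605 on the plus strand and Irgm1 at chr11:48871371-48871670 on the minus strand.
Ifit3b: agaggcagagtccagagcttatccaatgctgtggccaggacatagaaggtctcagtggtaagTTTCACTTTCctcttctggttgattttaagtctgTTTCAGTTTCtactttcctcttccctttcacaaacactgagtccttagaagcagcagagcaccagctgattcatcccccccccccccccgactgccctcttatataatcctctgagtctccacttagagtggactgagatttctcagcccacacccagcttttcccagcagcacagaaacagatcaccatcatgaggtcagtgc
Oas3: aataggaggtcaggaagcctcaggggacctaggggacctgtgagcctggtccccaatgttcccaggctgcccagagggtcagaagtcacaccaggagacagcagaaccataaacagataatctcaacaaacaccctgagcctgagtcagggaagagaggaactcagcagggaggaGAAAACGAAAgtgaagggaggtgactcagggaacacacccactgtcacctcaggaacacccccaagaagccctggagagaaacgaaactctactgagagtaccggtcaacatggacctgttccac
Stat2: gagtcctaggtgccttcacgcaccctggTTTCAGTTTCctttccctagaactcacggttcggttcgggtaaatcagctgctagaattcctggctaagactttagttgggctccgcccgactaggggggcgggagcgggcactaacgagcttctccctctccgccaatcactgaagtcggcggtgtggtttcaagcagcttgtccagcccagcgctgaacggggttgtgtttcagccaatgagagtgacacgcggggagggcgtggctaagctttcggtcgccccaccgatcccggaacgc
Rigi: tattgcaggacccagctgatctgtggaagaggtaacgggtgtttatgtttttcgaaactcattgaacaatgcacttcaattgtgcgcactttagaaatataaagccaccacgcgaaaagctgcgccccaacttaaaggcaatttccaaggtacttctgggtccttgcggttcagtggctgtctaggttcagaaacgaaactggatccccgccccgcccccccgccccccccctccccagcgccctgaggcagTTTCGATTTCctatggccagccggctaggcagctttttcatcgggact
Gbp2: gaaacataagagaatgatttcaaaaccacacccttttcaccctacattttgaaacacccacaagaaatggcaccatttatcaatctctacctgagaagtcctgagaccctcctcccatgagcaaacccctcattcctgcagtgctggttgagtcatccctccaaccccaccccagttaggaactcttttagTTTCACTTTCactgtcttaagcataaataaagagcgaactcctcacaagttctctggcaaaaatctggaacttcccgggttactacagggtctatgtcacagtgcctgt
Igtp: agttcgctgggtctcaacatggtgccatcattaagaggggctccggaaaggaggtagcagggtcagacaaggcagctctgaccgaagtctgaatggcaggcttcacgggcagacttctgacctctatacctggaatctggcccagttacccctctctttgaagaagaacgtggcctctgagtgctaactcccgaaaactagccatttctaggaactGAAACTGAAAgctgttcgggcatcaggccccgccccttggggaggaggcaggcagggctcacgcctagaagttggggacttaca
Irgm1: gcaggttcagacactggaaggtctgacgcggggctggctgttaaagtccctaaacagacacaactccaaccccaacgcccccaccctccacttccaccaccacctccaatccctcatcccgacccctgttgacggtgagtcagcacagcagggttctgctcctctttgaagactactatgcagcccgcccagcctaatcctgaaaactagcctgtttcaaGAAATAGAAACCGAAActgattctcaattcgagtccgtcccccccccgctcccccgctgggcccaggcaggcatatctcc

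Counted from the gene's start, the core ended at -50 in the Gbp2 promoter, at -25 in Igtp, at -15 in Irgm1 and at -66 in Oas3. It lay further upstream in Stat2, from -222 to -213, and in Ifit3b, with cores from -188 to -179 and from -154 to -145. In Rigi it lay just inside the transcript, from 2 to 11. Irgm1 held 2 cores that overlap, from -30 to -21 and from -24 to -15, and Isg15, not shown, held 3 that overlap between -78 and -57. Igtp also held a GAS from -45 to -37, next to its core, and in Bst2 the GAS from -136 to -128 shared bases with the core from -130 to -121. Promoters of the called members Oasl1, Oasl2, Irf9, Xaf1 and Ifi47 held neither motif in this window.

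**Figure D1:**
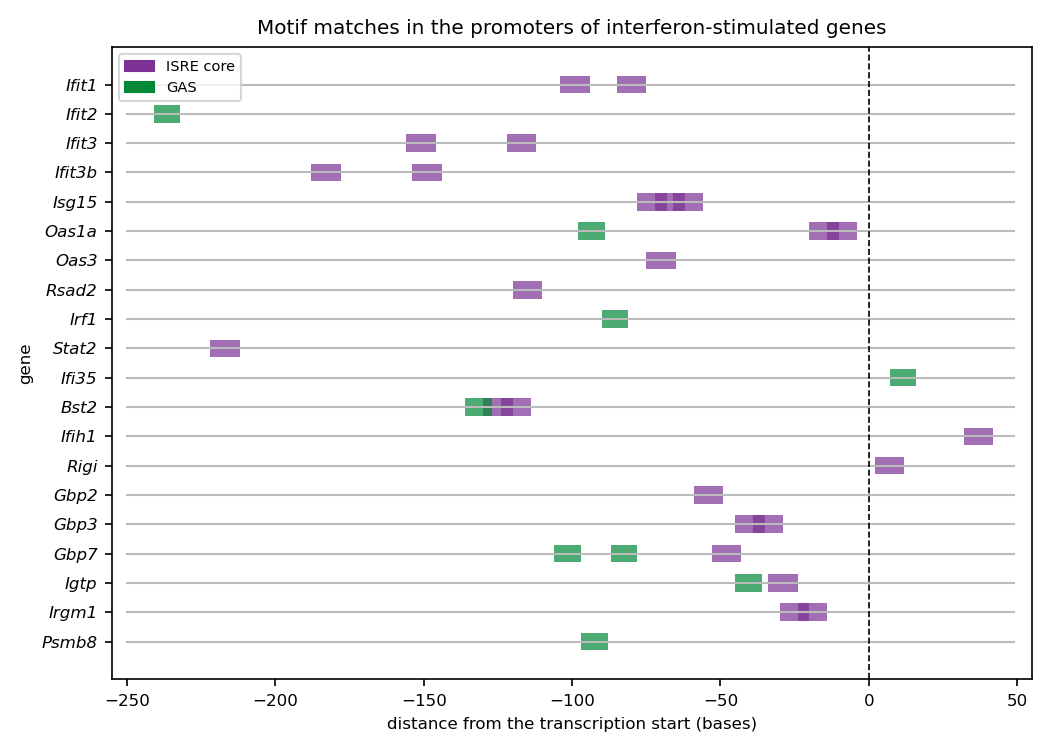
Matches to the ISRE core and the GAS in the 20 member promoters that hold at least 1, placed by distance in bases from the gene's start, from 250 before to 50 after. The core was in 16 of 35 promoters and the GAS in 8.

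Levels differed widely among the members. Per length of transcript, in CPM per kilobase (FPKM) averaged over the 12 mice, Ifi27, a mitochondrial and endomembrane protein known as an interferon marker, was highest at 17.2 FPKM, followed by Bst2, the tetherin that holds budding virus at the membrane, at 16.5 FPKM, and Ifit3, which binds other IFIT proteins, at 13.6 FPKM. The lowest were Mx1 at 0.20 FPKM and Oas3 at 0.338 FPKM. In the interferon-gamma class Igtp was highest at 5.05 FPKM, and among the sensors Rigi at 2.65 FPKM.

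Several members lie side by side in the genome, coordinates here being those of GRCm39 in the count table. Ifit1, Ifit2, Ifit3 and Ifit3b lie on chromosome 19, Oas1a, Oas2 and Oas3 on chromosome 5, with Oasl1 and Oasl2 as a pair apart from them on that chromosome, Gbp2, Gbp3 and Gbp7 on chromosome 3, Mx1 and Mx2 on chromosome 16, and Psmb8, Psmb9 and Tap1 on chromosome 17. Neighbours did not always share a result. Oas3 was called in Model against Ctrl and the adjacent Oas2 was not, at -0.31 (adjusted p = 0.631), a contrast that was not itself tested. Another listed gene overlaps 17 members, 13 of them on the opposite strand, and for 7 members the overlapping gene had over 10% of the member's counts. The strand setting of the counting is not given, so reads in such overlaps could have been assigned to either gene or to neither. Of windows of 100 bases in their transcripts, 5 members shared over 10% with another gene, led by Oas1a at 40.9%, Ifit3 at 31.7% and Ifit3b at 27.4%, and 29 members shared none.

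Within groups certain mice were high or low for many members. Among the Ctrl kidneys, Ctrl 1 and Ctrl 3 had the highest level of 18 and 17 of the 41 members, and Ctrl 4 and Ctrl 2 the lowest of 24 and 16. In the interferon-gamma class Ctrl 1 was the highest Ctrl kidney for 8 of 10 members and Ctrl 4 the lowest for 7. The Model kidneys were more even, the highest being Model 2 for 15 members and Model 1 and Model 4 for 10 each. Among the YHY kidneys, YHY 4 was lowest for 26 of 41 members and highest for 1, and YHY 2 was highest for all 4 sensors.

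**Figure D2:**
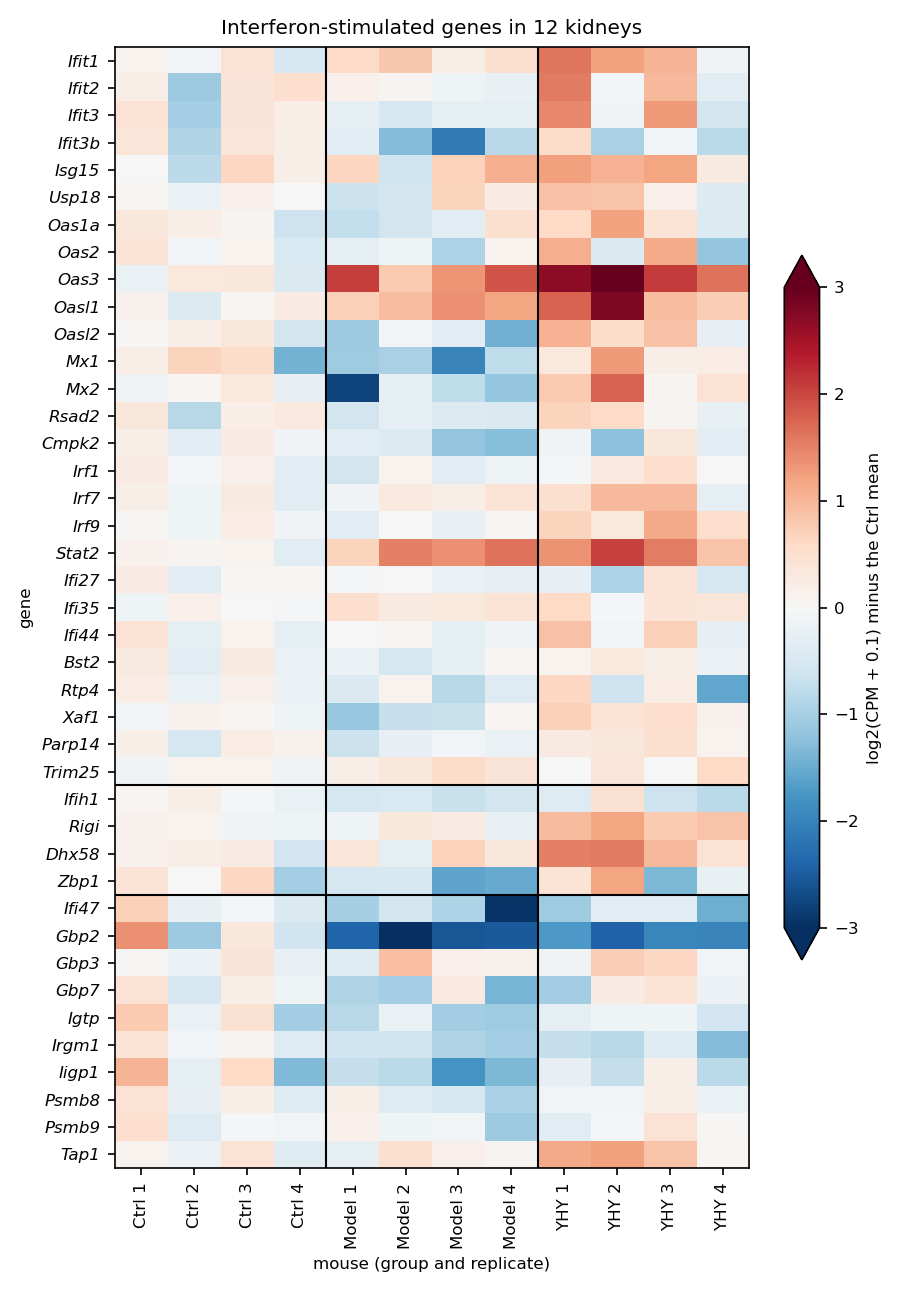
Heat map of the 41 members by class in the 12 mice, as log2 of CPM plus a small constant minus the Ctrl mean, with the colour scale ending at 3 either way. YHY 4 was the lowest YHY kidney for 26 members, and Ctrl 1 the highest Ctrl kidney for 18.

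Model against Ctrl asks how the diabetic kidney differs from the lean one. The interferon-stimulated genes did not move as a block there: a few antiviral genes were higher, and 5 of the 10 genes of the interferon-gamma class were lower. Stat2, a transcription factor of type I signalling, and the oligoadenylate synthetase Oas3 were higher in every Model kidney than in any Ctrl kidney. Gbp2, a guanylate-binding GTPase that attacks pathogen vacuoles, and Irgm1, an immunity-related GTPase that regulates its family, were lower in every Model kidney. Of 41 members, 3 were called higher, where 19.6% of all genes tested were, and 6 were called lower, where 18.5% of all genes were.

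The median member stood at -0.25 against 0.04 for all genes tested, and 13 members, or 31.7%, lay above 0 against 51.8% of all genes. By non-overlapping groups 5 members were higher, beside 19.9% of all genes, and 5 lower, beside 20.3%. By the study's limits, a fold over 1.2 at an unadjusted p under 0.05, 5 were higher and 11 lower, beside 24.5% and 22.4% of all genes. Library-size scaling gave 2 members higher and 19 lower, among 1547 and 5667 genes in place of 3412 and 3219, and upper-quartile scaling gave 5 higher and 3 lower. The count of 6 lower members fell to 2 without Ctrl 1, to 3 without Ctrl 3 and to 3 without Model 3. Without Model 1, which stood apart from its group, 3 were higher and 7 lower. Leaving out Ctrl 4, which also stood apart, gave 2 higher and 6 lower.

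Among the 27 antiviral effectors and regulators, 3 were higher, 1 was lower and 23 did not pass, where 19.6% of all genes were higher and 18.5% lower. Their median was -0.24, with 9 members above 0. By DESeq2 3 were higher and 3 lower. Library-size scaling called 2 higher and 10 lower, and upper-quartile scaling 5 higher, and the 1 lower was 3 without Ctrl 2, 2 without Model 1 and 2 without YHY 2. It was lost, with no member in its place, without Ctrl 1, Ctrl 3, Model 2 or Model 3, under upper-quartile scaling and with at least 10 counts in every sample. Their summed level was 292, 217, 299 and 250 CPM in Ctrl 1 to 4 and 247, 276, 265 and 285 CPM in Model 1 to 4, means of 264 ± 38.4 and 268 ± 16.4 CPM (SD, n = 4). The sums overlapped between the groups. Oas3, which makes the oligoadenylates that activate RNase L, lies at chr5:120891163-120915726 on the minus strand. It was at 0.576, 0.874, 0.882 and 0.478 CPM in Ctrl and at 3.22, 1.24, 1.87 and 2.78 CPM in Model. Each Model kidney was above each Ctrl kidney, although the level was low in all, and Oas3 rose by 1.70 ± 0.40 (adjusted p = 0.00362).

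Stat2, at chr10:128106428-128128718 on the plus strand, was at 13.7, 13.2, 13.6 and 10.1 CPM in Ctrl and at 20.0, 36, 32.4 and 39.3 CPM in Model. All 4 Model kidneys were above the Ctrl kidneys, Model 1 by the least and Ctrl 4 below its own group, and Stat2 rose by 1.33 ± 0.24 (adjusted p = 0.000487), a fold of 2.52. Oasl1, an oligoadenylate synthetase-like protein that holds back Irf7 translation, was at 2.02, 1.37, 1.91 and 2.21 CPM in Ctrl and at 3.12, 3.62, 4.98 and 4.32 CPM in Model. It too was higher in every Model kidney, by 1.09 ± 0.39 (adjusted p = 0.0375). That call was lost under library-size scaling (adjusted p = 0.177), with the 9 mice behind the authors' group means (0.0511) and with a replicate block (0.0592), and over its 21 alternatives the adjusted p of Oasl1 ran from 0.00503 to 0.177. Without Ctrl 1, 2, 3 or 4 in turn it was 0.0744, 0.0912, 0.0809 and 0.0574, and without Model 2, 3 or 4 it was 0.0587, 0.0976 and 0.0776.

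Ifit3b, a copy of Ifit3 next to it on chromosome 19, was the antiviral member that fell. It was at 6.84, 2.78, 6.86 and 5.94 CPM in Ctrl and at 4.25, 2.10, 1.14 and 2.91 CPM in Model. Ctrl 2 lay inside the Model range, so the groups overlapped, and the difference was -1.10 ± 0.42 (adjusted p = 0.0486). The call of Ifit3b did not hold without Ctrl 1, 3 or 4 (adjusted p = 0.109, 0.107 and 0.0801), without Model 2, 3 or 4 (0.118, 0.132 and 0.0801) or without YHY 3 (0.0564), nor under upper-quartile scaling (0.0755) or with at least 10 counts in every sample (0.0515), in a range from 0.00496 to 0.132 over 21 alternatives. Its neighbour Ifit3, with which it shares sequence, stood at -0.43 (adjusted p = 0.381).

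Ifi27, the most abundant member per length, was at 32.3, 21.7, 28.2 and 28.1 CPM in Ctrl and at 26.6, 27.2, 23.7 and 23 CPM in Model. The Ctrl kidney at 21.7 CPM lay below every Model kidney, and the other Ctrl kidneys lay above every Model kidney. The ranges overlapped only through that low Ctrl kidney, and the difference was -0.13 ± 0.23 (adjusted p = 0.671). Ifi35 and Trim25, the latter a ubiquitin ligase that activates Rigi, were higher in each Model kidney than in each Ctrl kidney without passing the test, at 0.38 and 0.37 (adjusted p = 0.0713 and 0.0683). Mx2, a dynamin-like GTPase, was lower in each Model kidney, also without passing, at -1.13 (adjusted p = 0.105). Ifi35 passed without YHY 2 (0.0395, in a range from 0.0292 to 0.917) and Trim25 without YHY 4 (0.0419, in a range from 0.0183 to 0.774), both also under upper-quartile scaling, and Mx2 passed under library-size scaling.

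None of the 4 sensors was called by edgeR in Model against Ctrl, 0 in either direction, where 19.6% of all genes were higher and 18.5% lower. The median sensor stood at -0.25. DESeq2 too called 0 sensors here, and by an unadjusted p under 0.05 there was 1, Ifih1, lower. Library-size scaling called 2 lower, Ifih1 and Zbp1, among 5667 of 17431 genes. Rigi, the helicase that detects short double-stranded RNA, was at 15.3, 15.1, 13.1 and 12.8 CPM in Ctrl and at 12.8, 17.6, 16.6 and 12 CPM in Model, at 0.07 ± 0.16 (adjusted p = 0.761). The groups overlapped, and the sign of this value turned under library-size scaling, to -0.38, and without Ctrl 3 (-0.02), Ctrl 4 (-0.03) or Model 2 (-0.03). Ifih1, the sensor of long double-stranded RNA also known as MDA5, was at 7.35, 8.02, 6.96 and 6.15 CPM in Ctrl and at 4.86, 5.10, 4.43 and 4.79 CPM in Model. Each Model kidney was below each Ctrl kidney, yet the difference of -0.57 ± 0.26 did not pass (adjusted p = 0.0916). It passed under library-size scaling (0.00403), with only the 8 mice compared (0.0142) and without YHY 2 (0.0252), in a range from 0.00403 to 0.174.

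The interferon-gamma class had 5 of 10 members lower and 0 higher by edgeR and by DESeq2 alike, with a median of -0.74. Of all genes 18.5% were lower and 19.6% higher by edgeR. Library-size scaling called 7 lower, and upper-quartile scaling 3, among 5667 and 2622 genes in place of 3219. The 5 were 2 without Ctrl 1, and 3 without Ctrl 3, without Model 3 or without Model 4. At an unadjusted p under 0.05, 0 were higher. The summed level was 131, 72.1, 103 and 59.8 CPM in Ctrl and 58.3, 68.8, 53.1 and 44.8 CPM in Model, means of 91.5 ± 32.1 and 56.2 ± 10.1 CPM (SD, n = 4). Ctrl 1 was far the highest kidney, and Ctrl 4 lay inside the Model range. From bulk tissue, fewer cells of a type and less RNA per cell cannot be told apart.

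Gbp2, at chr3:142326363-142343769 on the plus strand, had the largest change of the class. It was at 16.6, 2.93, 8.08 and 4.19 CPM in Ctrl and at 1.13, 0.143, 1.0 and 1.03 CPM in Model, where the counts were 35, 3, 22 and 24. Ctrl kidneys spread widely, Ctrl 1 highest, and even so each Model kidney was below each of them, Model 2 at the floor of 3 counts. Gbp2 fell by 3.24 ± 0.56 on the log2 scale (adjusted p = 0.000347). Its neighbours Gbp3 and Gbp7 were not called, at 0.26 and -0.68 (adjusted p = 0.484 and 0.217), a contrast with Gbp2 that was not tested.

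The other 4 that fell are immunity-related or related GTPases that guard vacuoles. Irgm1, at chr11:48752795-48762510 on the minus strand, was at 34.6, 24.5, 27.5 and 19.8 CPM in Ctrl and at 17.1, 17.1, 13.9 and 12.8 CPM in Model. Every Model kidney was lower, and Irgm1 fell by 0.81 ± 0.20 (adjusted p = 0.00566). Ifi47 was at 4.92, 2.53, 2.87 and 2.16 CPM in Ctrl and at 1.45, 2.0, 1.51 and 0.299 CPM in Model. It was lower in every Model kidney, Model 4 lowest with 7 counts, and fell by 1.25 ± 0.47 (adjusted p = 0.0482).

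Iigp1, an effector GTPase that disrupts pathogen vacuoles, was at 18.8, 7.61, 14.1 and 3.64 CPM in Ctrl and at 5.60, 5.24, 2.60 and 3.59 CPM in Model. Ctrl 4 lay inside the Model range, and the difference was -1.37 ± 0.41 (adjusted p = 0.0151). Igtp, the GTPase also called Irgm3, was at 20.9, 10.6, 16.6 and 5.81 CPM in Ctrl and at 6.70, 10.4, 5.85 and 5.73 CPM in Model. Here too Ctrl 4 was among the Model kidneys, and Model 2 near Ctrl 2, with a difference of -0.91 ± 0.31 (adjusted p = 0.0312). Irgm2, which overlaps Igtp on the same strand with 53.0% of its counts, stood at -0.90 (adjusted p = 0.0124).

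Of the 5 calls in the class, those of Gbp2 and Irgm1 held in every alternative that gave a value. Iigp1 did not pass without Ctrl 1 (adjusted p = 0.0662) or Model 3 (0.0517), in a range from 0.000351 to 0.0662, and Igtp without Ctrl 1 (0.112), Ctrl 3 (0.0706), Model 3 (0.0863) or Model 4 (0.089) or under upper-quartile scaling (0.054), in a range from 0.00214 to 0.112. Ifi47 did not pass without Ctrl 1, 2 or 3 (0.151, 0.056 and 0.0641), without Model 1, 3 or 4 (0.0579, 0.0758 and 0.10) or without YHY 3 (0.0513), nor under upper-quartile scaling (0.0675) or with the 9 mice (0.0533), in a range from 0.00748 to 0.151. The immunoproteasome subunits Psmb8 and Psmb9 and the peptide transporter Tap1 were not called, at -0.41, -0.25 and 0.10.

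T and natural killer cells are the usual source of interferon-gamma. Their 10 markers summed to 6.89, 2.62, 2.55 and 1.94 CPM in Ctrl and to 1.87, 0.667, 0.502 and 0.684 CPM in Model. Ctrl 1, the highest of the 12 kidneys by the sum of the interferon-gamma class, was also highest here, and Model 2, 3 and 4 were the lowest of the 12. Cd8a was the most abundant marker in 6 of the 12 libraries, and 7 of the 10 markers were at 0 counts in Model 2 and in Model 3. Enough counts to test were found for 3 markers, of which edgeR called 0 in Model against Ctrl, with 1 lower at an unadjusted p under 0.05, and DESeq2, which fitted all 10, called 1 lower, Nkg7. Under library-size scaling, with no filter, with the 9 mice, without Ctrl 2 and without YHY 4 edgeR too called 1 lower. With YHY, both tools called 0 of these markers relative to Model, and 0 reached an unadjusted p under 0.05. The part of these cells in the lower interferon-gamma class was not tested.

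**Figure D3:**
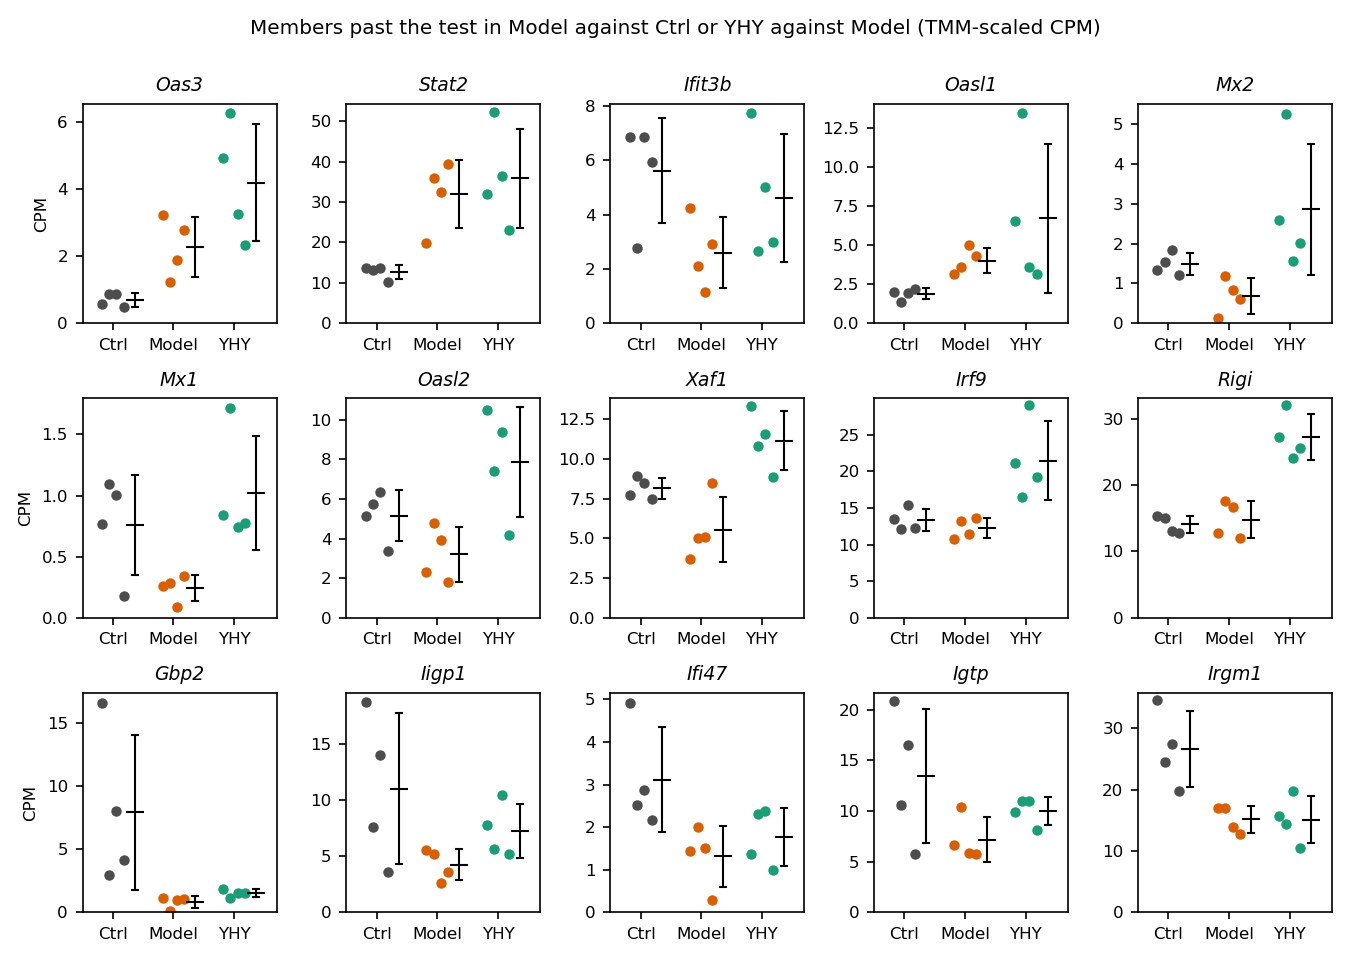
CPM by mouse of the 15 members called between Model and Ctrl or between YHY and Model, with bars for the mean and SD of each group of 4. Gbp2 lay at 0.143 to 1.13 CPM in the Model kidneys and at 2.93 to 16.6 CPM in the Ctrl kidneys.

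YHY against Model asks what the extract changed in the diabetic kidney. Of the 41 members 35 did not pass the test. By sign alone, passed or not, 37 of 41, or 90.2%, had a value above 0, against 51.7% of all genes, and the median member stood at 0.59 against 0.02. The sensor Rigi, the transcription factor Irf9 that acts with Stat2 at the ISRE, and the pro-apoptotic Xaf1 were higher in every YHY kidney than in any Model kidney. Transcripts of Mx1 and Mx2, listed among the antiviral effectors, were 4.07 and 4.20 times higher, again with no overlap. Of the 41 members, 6 were called higher, where 5.63% of all genes tested were, and 0 were called lower by edgeR, where 7.62% of all genes were.

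By DESeq2, 10 members were higher and 0 lower, among 1434 and 1689 of 17309 genes. By edgeR those were 982 and 1329 of 17431 genes. By the study's limits 14 were higher and 0 lower, beside 13.9% and 14.7% of all genes, and the same 14 and 0 had an unadjusted p under 0.05. Groups did not overlap for 7 members that were higher, beside 6.83% of all genes, and for 0 that were lower, beside 9.28%. The count of 6 was 13 without YHY 4 and 3 without Model 4, 4 without Model 1, and 11 with the 9 mice behind the authors' group means. Of all genes, 1045, 600, 634 and 860 were higher in those fits.

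Among the antiviral effectors 5 of 27 were higher, where 5.63% of all genes were, and 22 did not pass. Their median was 0.59, with 24 above 0. DESeq2 called 8 higher, and the 5 were 10 without YHY 4, 2 without Model 4, 3 without Model 1 and 3 without YHY 1. Their summed level was 247, 276, 265 and 285 CPM in Model and 421, 356, 414 and 262 CPM in YHY, means of 268 ± 16.4 and 363 ± 73.6 CPM (SD, n = 4). YHY 1, 2 and 3 were above every Model kidney, and YHY 4 lay inside the Model range. Proximal tubule markers summed to 1284, 2964, 1846 and 3800 CPM in YHY 1 to 4, in the reverse order of these antiviral sums. That order did not hold in Ctrl or in Model, nor in YHY for the sums of the sensors or of the interferon-gamma class. The part of proximal tubule cells was not tested. Mx2, at chr16:97336508-97362100 on the plus strand, was at 0.129, 1.19, 0.822 and 0.599 CPM in Model and at 2.59, 5.25, 1.56 and 2.01 CPM in YHY, from counts of 4, 25, 18 and 14 and of 68, 95, 42 and 52. Each YHY kidney was above each Model kidney, YHY 2 highest, and Mx2 rose by 2.07 ± 0.54 (adjusted p = 0.0201). The call of Mx2 was lost without Model 4 (adjusted p = 0.051) or YHY 2 (0.0675), in a range from 0.00122 to 0.0675.

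Mx1, at chr16:97248235-97264107 on the minus strand, is a relative of Mx2. It was at 0.258, 0.286, 0.0913 and 0.342 CPM in Model and at 0.840, 1.71, 0.744 and 0.775 CPM in YHY, from 2 to 8 and from 20 to 31 counts. The groups did not overlap, at levels near the floor in Model, and Mx1 rose by 2.03 ± 0.64 (adjusted p = 0.0471). This call held in 5 of the 20 alternatives that gave a value, over which its adjusted p ran from 0.015 to 0.132. Without Model 1, 2, 3 or 4 it was 0.097, 0.0829, 0.132 and 0.0692, without YHY 1, 2 or 3 it was 0.0666, 0.128 and 0.06, and without Ctrl 1, 2 or 3 it was 0.0731, 0.0627 and 0.0722. The call was also lost under library-size scaling (0.0688), with no filter (0.0717), with only the 8 mice compared (0.0549), with the 9 mice (0.098) and with a replicate block (0.0858).

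Oasl2, an oligoadenylate synthetase-like protein with ubiquitin-like domains, was at 2.32, 4.76, 3.93 and 1.80 CPM in Model and at 10.5, 7.41, 9.38 and 4.18 CPM in YHY. YHY 4 lay inside the Model range and the other YHY kidneys above it, with a rise of 1.30 ± 0.34 (adjusted p = 0.0212). That call was lost without Model 1 (adjusted p = 0.0652), Model 4 (0.059) or YHY 1 (0.0553), in a range from 0.00264 to 0.0652. Xaf1, at chr11:72192455-72204559 on the plus strand, was at 3.67, 5.0, 5.07 and 8.47 CPM in Model and at 13.3, 10.8, 11.5 and 8.87 CPM in YHY. Every YHY kidney was higher, YHY 4 only just above Model 4, and Xaf1 rose by 1.01 ± 0.23 (adjusted p = 0.0117).

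Irf9, at chr14:55841028-55847487 on the plus strand, was at 10.7, 13.1, 11.4 and 13.6 CPM in Model and at 21.1, 16.4, 29 and 19.2 CPM in YHY. All 4 YHY kidneys were above the Model kidneys, YHY 3 highest, and Irf9 rose by 0.82 ± 0.18 (adjusted p = 0.00853). Rnf31, a gene that overlaps Irf9 on the same strand with 101% of its counts, stood at 0.79 in the same comparison (adjusted p = 0.009). Stat2 and Oas3, higher in Model than in Ctrl, were at 31.9, 52.2, 36.6 and 23 CPM and at 4.92, 6.25, 3.24 and 2.32 CPM in YHY. They overlapped the Model values given above, at 0.17 and 0.87 (adjusted p = 0.691 and 0.15).

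Several antiviral members came near the threshold without passing. Rsad2, or viperin, which makes a chain-terminating nucleotide, was at 9.66, 11.6, 10.6 and 10.4 CPM in Model and at 22.5, 21.1, 15 and 12 CPM in YHY. Each YHY kidney was above each Model kidney, and the difference of 0.74 ± 0.24 did not pass (adjusted p = 0.0567). Ifit3 was at 16.4, 14, 16.5 and 16.6 CPM in Model and at 54.5, 18.5, 48.2 and 13.6 CPM in YHY. YHY 1 and YHY 3 were far above the Model kidneys, YHY 2 just above and YHY 4 just below them, at 1.09 ± 0.38 (adjusted p = 0.0676). Parp14, an ADP-ribosyltransferase, was at 0.59 (adjusted p = 0.0586), and Ifit2 and Ifit1 at 0.77 and 0.52 (adjusted p = 0.184 and 0.258). Values below 0 were found for 3 antiviral members, Ifi27 at -0.11, Trim25 at -0.11 and Ifi35 at -0.04, none past the test, and Ifi27 turned to 0.06 without YHY 2 and to 0.03 with the 9 mice.

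Of the 4 sensors, 1 was higher, where 5.63% of all genes were, and 3 did not pass. Their median was 0.89, with all 4 above 0. Rigi, at chr4:40203773-40239828 on the minus strand, was at 12.8, 17.6, 16.6 and 12 CPM in Model and at 27.2, 32.1, 24.1 and 25.6 CPM in YHY. The YHY kidneys lay close together and well above the Model kidneys, and Rigi rose by 0.88 ± 0.16 (adjusted p = 0.00312), a fold of 1.85. Its call held in all 21 alternatives. The summed level of the sensors was 20.4, 24.8, 23.7 and 19 CPM in Model and 38.6, 49.2, 32 and 32.6 CPM in YHY, without overlap. Rigi made up most of these sums, and gene by gene the groups did not overlap for 1 of the 4, Rigi. Dhx58, a regulator of both RNA sensors, Zbp1, a sensor of Z-form nucleic acid that can start necroptosis, and Ifih1 stood at 0.90, 1.30 and 0.30 (adjusted p = 0.105, 0.154 and 0.488), and Dhx58 passed without YHY 4 (0.046, in a range from 0.046 to 0.223).

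In the interferon-gamma class edgeR called 0 of 10 members in either direction, where 5.63% of all genes were higher and 7.62% lower. The class had a median of 0.45 and 9 members above 0. At an unadjusted p under 0.05 there was 1, Tap1, higher, and DESeq2 called that 1 (adjusted p = 0.0387) and 0 lower. The summed level was 58.3, 68.8, 53.1 and 44.8 CPM in Model and 68.5, 75.6, 86.5 and 53.8 CPM in YHY, overlapping between the groups. Tap1, which carries peptides to MHC class I, was at 4.38, 7.43, 5.89 and 5.64 CPM in Model and at 11.8, 12.7, 9.75 and 5.54 CPM in YHY, YHY 4 lying inside the Model range, at 0.77 ± 0.27 (adjusted p = 0.0704). It passed without YHY 4 (0.0142) and with the 9 mice (0.0348), in a range from 0.0142 to 0.174. Gbp2 and Irgm1, lower in Model than in Ctrl, were at 1.87, 1.11, 1.56 and 1.55 CPM and at 15.8, 14.5, 19.8 and 10.5 CPM in YHY. They stood at 0.87 and -0.01 against Model (adjusted p = 0.32 and 0.992).

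Macrophages express many of these genes. Their 10 markers summed to 218, 237, 279 and 346 CPM in Model and to 380, 559, 257 and 212 CPM in YHY, against 242, 164, 244 and 202 CPM in Ctrl. YHY 2 had the highest sum of the 12 kidneys, YHY 3 lay inside the Model range and YHY 4 below it. By the sums of the antiviral class YHY 1 and YHY 3 were the highest YHY kidneys, by that of the interferon-gamma class YHY 3 and by that of the sensors YHY 2, so that the order of the kidneys differed between the lists. Lyz2 was the most abundant marker in each library and no marker was at 0. Between YHY and Model 9 of the 10 markers had a value above 0, with a median of 0.47, which was 0.18 without YHY 2. Of the 10, edgeR and DESeq2 called 0 in YHY against Model, with 2 higher at an unadjusted p under 0.05. Cd68 passed with no filter (adjusted p = 0.0472), with the 9 mice (0.0449) and without YHY 4 (0.0169), and Itgam without YHY 4 (0.0402), over ranges of 0.0169 to 0.282 and 0.0402 to 0.36. In Model against Ctrl edgeR called Cd14 and Cd68 higher, the latter not under library-size scaling, and C1qa, C1qb and C1qc lower. Plasmacytoid dendritic cells, a main source of type I interferon, had 1 of 3 markers with enough counts, not called by edgeR or DESeq2 in these comparisons. Their 3 markers summed to 0.418, 0.905, 0.868 and 0.599 CPM in Model and 0.153, 2.05, 0.149 and 1.08 CPM in YHY. In Ctrl they summed to 0.552, 0.187, 0.098 and 0.0455 CPM. The part of these cells in the result was not tested.

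**Figure D4:**
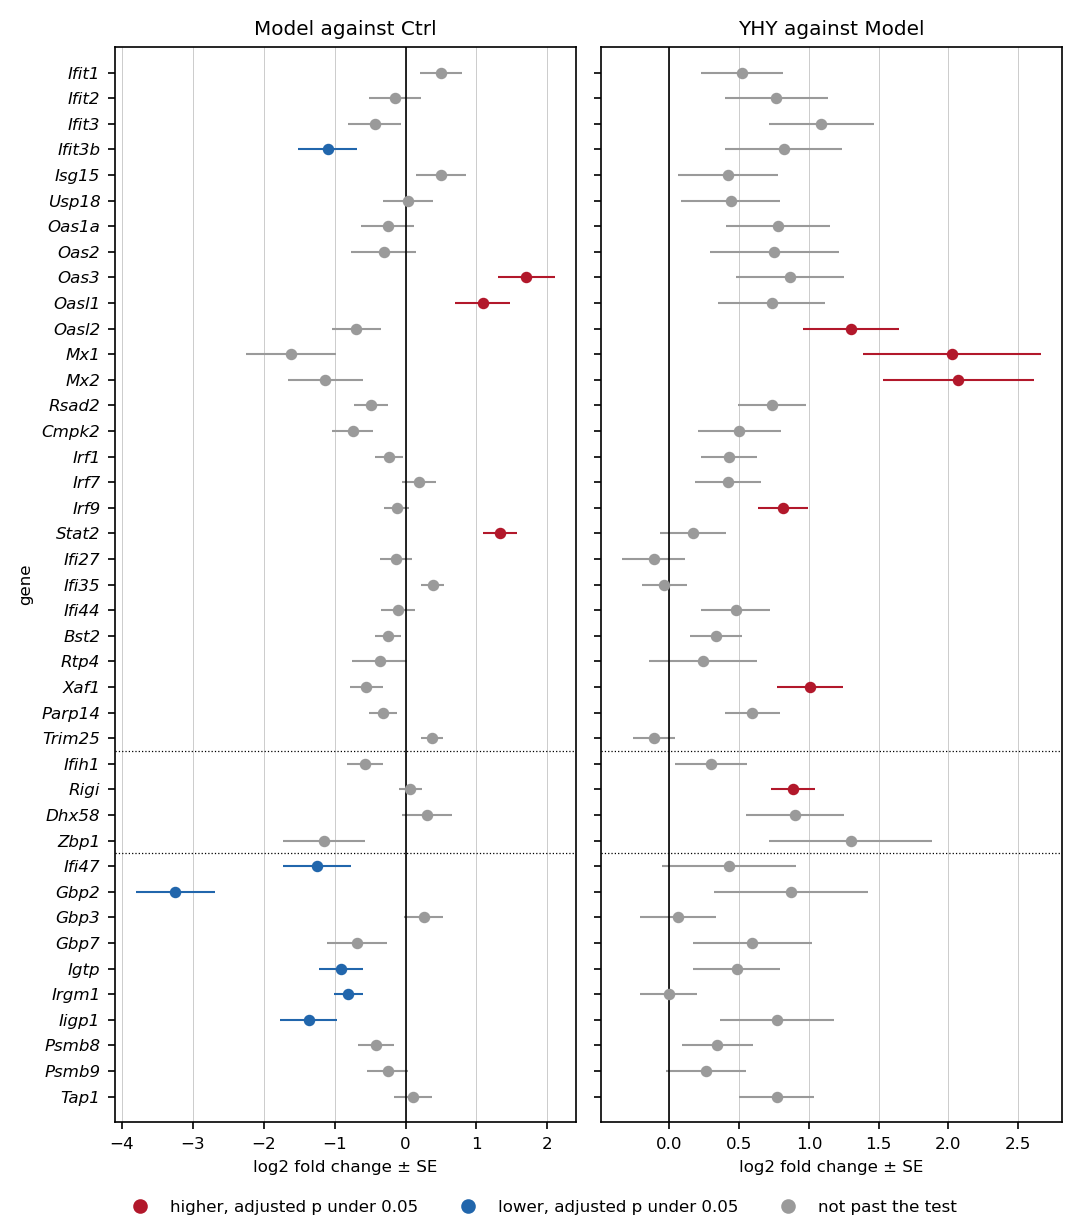
Log2 fold change with standard error of the 41 members, Model against Ctrl beside YHY against Model, coloured where the adjusted p was under 0.05. In the first 3 were higher and 6 lower, and in the second 6 higher and 0 lower, with 37 values above 0.

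YHY against Ctrl gives the distance of the treated diabetic kidney from the lean one. It shares the YHY mice with one of the other comparisons and the Ctrl mice with the other, and those comparisons share the Model mice, so that each comparison's values are given on their own. Stat2, Oas3 and Oasl1 were higher in every YHY kidney than in any Ctrl kidney, as were Irf9, Rigi and Dhx58, and Gbp2 was lower in every YHY kidney. Of 41 members 10 were called higher, where 26.1% of all genes were, and 2 lower, where 24.2% were. The median member stood at 0.34 against 0.10 for all genes, and at -0.05 against -0.33 under library-size scaling, with 29 members above 0 in the first case and 18 in the second.

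By the study's limits 11 members were higher and 2 lower, beside 29.4% and 26.6% of all genes. Library-size scaling called 4 members higher and 5 lower, among 2365 and 5977 genes in place of 4547 and 4215, and without Ctrl 4 the members lower were 4 in place of 2. The 10 were 7 antiviral members, 2 sensors and 1 of the interferon-gamma class. With the values of each mouse given above, Oas3 rose by 2.57 ± 0.41 (adjusted p = 9.04e-05), Oasl1, at 6.56, 13.4, 3.61 and 3.18 CPM in YHY, by 1.82 ± 0.39 (adjusted p = 0.00116) and Stat2 by 1.50 ± 0.24 (adjusted p = 9.45e-05). Irf9 rose by 0.69 ± 0.18 (adjusted p = 0.00398), a call lost under library-size scaling (adjusted p = 0.332, in a range from 0.00161), and the overlapping Rnf31 stood at 1.40 (adjusted p = 1.1e-05). Rigi rose by 0.95 ± 0.16 (adjusted p = 0.000135).

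Dhx58 was at 1.54, 1.62, 1.69 and 0.911 CPM in Ctrl and at 4.20, 4.31, 2.87 and 1.94 CPM in YHY, without overlap, at 1.21 (adjusted p = 0.00952). Dhx58os, which overlaps it on the opposite strand with 34.5% of its counts, stood at 2.37 (adjusted p = 0.00464). Ifit1, which binds foreign RNA caps, and Tap1 stood at 1.02 and 0.87 (adjusted p = 0.00886 and 0.0129), with overlapping groups. Isg15, the ubiquitin-like modifier, and Irf7, the factor that amplifies type I interferon, stood at 0.92 and 0.60 (adjusted p = 0.0425 and 0.0447). The groups overlapped for these as well. All 5 calls were lost under library-size scaling, and that of Tap1 also without Ctrl 4 (adjusted p = 0.0576), in a range from 0.00154 to 0.202. Isg15 did not pass without Ctrl 1, 2 or 4 (0.113, 0.119 and 0.0845), Model 1 or 3 (0.0675 and 0.0551) or YHY 1, 2 or 3 (0.0924, 0.0735 and 0.0935), nor with the 9 mice (0.0659), in a range from 0.0182 to 0.333. Irf7 did not pass without Ctrl 1, 2, 3 or 4 (0.0795, 0.103, 0.0639 and 0.169), Model 1, 2, 3 or 4 (0.0711, 0.0576, 0.059 and 0.0537) or YHY 1, 2 or 3 (0.0516, 0.141 and 0.148), nor with only the 8 mice compared (0.0933) or a replicate block (0.0614), in a range from 0.00215 to 0.605, and Phrf1, which overlaps it on the opposite strand with 187% of its counts, stood at 1.17 (adjusted p = 7.69e-06). Psmb9, which overlaps Tap1 on the opposite strand with 83.3% of its counts, stood at 0.01 (adjusted p = 0.98). The 2 lower members were Gbp2 and Irgm1, which fell by 2.38 ± 0.53 and by 0.81 ± 0.20 (adjusted p = 0.00148 and 0.00357), Irgm1 with YHY 3 inside the Ctrl range.

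The ligands of the pathway were all but unseen. None of 10 interferon genes had enough counts to be tested, 6 were at 0 in every library, and the 28 counts in all were spread over Ifng, Ifnl3, Ifnb1 and Ifnk. Ifng had 6 counts in Ctrl 1, 2 in Ctrl 3 and 4 in YHY 1, and 0 in the other 9 mice. A library at 0 counts allows up to its floor of 3 counts, so that a difference in the ligands was not detectable at this depth.

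Of the receptors and Janus kinases, 8 of 9 genes were tested, and in Model against Ctrl 2 were higher and 1 lower, where 19.6% and 18.5% of all genes were. DESeq2 called 2 and 2, and library-size scaling called 3 lower. The lower gene besides Jak1 by DESeq2 was Jak2, at -0.37 (adjusted p = 0.0508), which passed without Ctrl 2 or 4 (0.0363 and 0.0309), Model 1 (0.0202) or YHY 2, 3 or 4 (0.0466, 0.0475 and 0.0487), in a range from 0.00304 to 0.141. Each fit here compared db/db with db/m mice, so the part of sequence linked to the Lepr mutation in the level of Jak1 was not tested. Jak1 was at 79, 70.4, 75.5 and 72.1 CPM in Ctrl and at 53.3, 42.5, 43.8 and 31.5 CPM in Model, lower throughout. It fell by 0.80 ± 0.15 (adjusted p = 0.000883). Its call held in all 21 alternatives.

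Tyk2, the kinase on the type I receptor, was at 11.3, 12.5, 12.1 and 11.3 CPM in Ctrl and at 13.9, 26.1, 22.7 and 19.5 CPM in Model, each Model kidney above each Ctrl kidney, and the receptor chain Ifnar2 at 8.14, 4.99, 5.58 and 6.31 CPM and at 9.17, 13.2, 10.6 and 9.62 CPM, again without overlap. They stood at 0.80 ± 0.18 and 0.77 ± 0.19 (adjusted p = 0.00305 and 0.00507), both calls lost under library-size scaling. The interferon-gamma receptor chains Ifngr1 and Ifngr2 were not called, at -0.32 and 0.13. In YHY against Model edgeR called 0 of the 8, where 5.63% of all genes were higher and 7.62% lower, and DESeq2 0 of 9. At an unadjusted p under 0.05, 1 was lower, Ifngr2, which passed without YHY 2 (adjusted p = 0.0382, in a range from 0.0382 to 0.329). Between YHY and Ctrl 3 were higher, Ifnlr1, Tyk2 and Ifnar2, and 1 lower, Jak1, where 26.1% and 24.2% of all genes were, at 1.15, 1.05, 0.78 and -0.51, Ifnlr1 and Ifnar2 not under library-size scaling, which called 1 higher and 3 lower. Ifngr2 was lower there too without YHY 2 (0.0274, in a range from 0.00877 to 0.476).

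**Figure D5:**
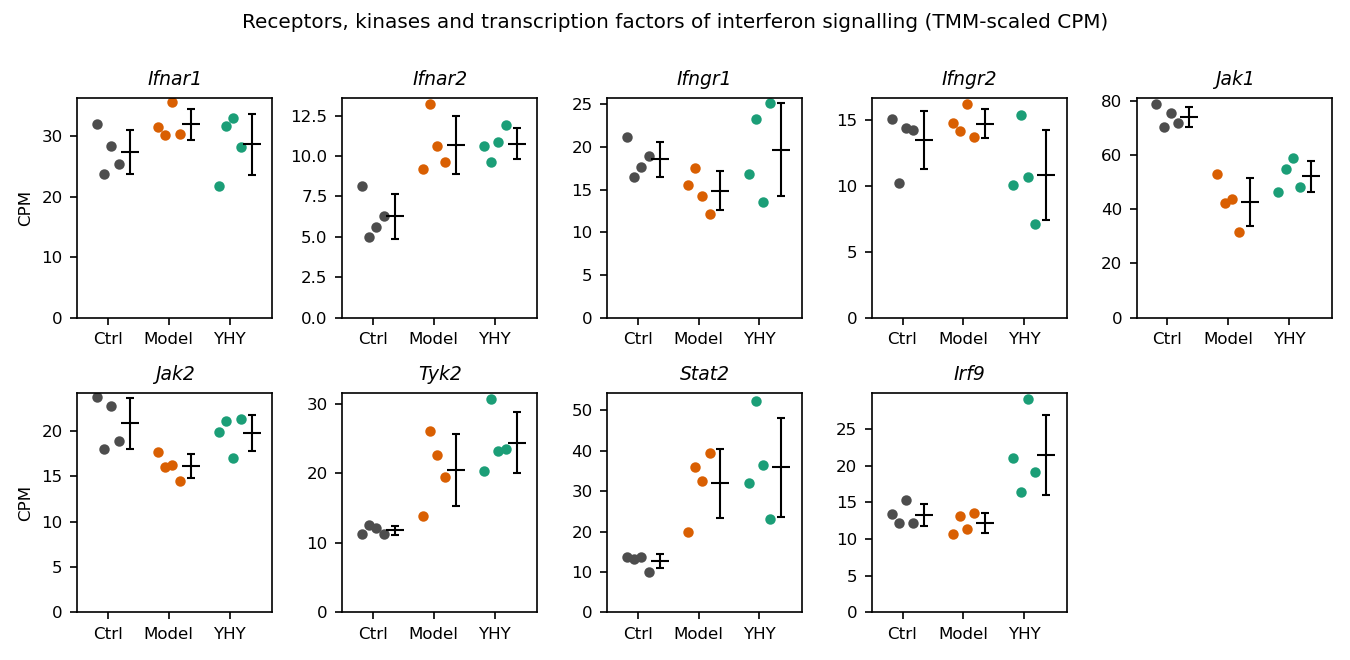
CPM by mouse of receptor chains, Janus kinases, Stat2 and Irf9, with bars for the mean and SD of each group of 4. Stat2 lay at 10.1 to 13.7 CPM in Ctrl and at 20.0 to 39.3 CPM in Model.

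Among negative regulators of the pathway 10 of 11 were tested. In Model against Ctrl 1 was lower, the phosphatase Ptpn6 at -0.67 (adjusted p = 0.00368), and 0 were higher by edgeR or DESeq2, where 18.5% and 19.6% of all genes were by edgeR, with 1 higher at an unadjusted p under 0.05. Socs3 passed there without YHY 2 or 4 (0.0475 and 0.0228, in a range from 0.0175 to 0.436), and library-size scaling called 3 lower. With YHY, 2 of the 10 were higher than in Model, where 5.63% of all genes were, the RNA editor Adar at 0.68 (adjusted p = 0.0333) and the nucleotide hydrolase Samhd1 at 0.63 (adjusted p = 0.023). Adar did not pass without Model 1, 3 or 4 (adjusted p = 0.0778, 0.106 and 0.0856) or YHY 2 (0.102), with only the 8 mice compared (0.0537), with the 9 mice (0.0548) or under library-size scaling (0.057), nor Samhd1 under library-size scaling (0.108) or without Model 3 or 4 (0.0741 and 0.0554) or YHY 3 (0.0617), over ranges of 0.0128 to 0.106 for Adar and 0.00548 to 0.108 for Samhd1. Between YHY and Ctrl 2 were higher and 2 lower, where 26.1% and 24.2% of all genes were. Socs3, a feedback inhibitor, rose in YHY against Ctrl, at 1.30 (adjusted p = 0.00345), not under library-size scaling, and Adar rose there at 1.02, while Ptpn6 and Ptpn11 fell, at -0.64 and -0.48, the latter not under upper-quartile scaling.

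Of 20 listed genes that sense nucleic acid and induce interferon, 18 were in the table and 16 tested. Against background shares of 19.6% and 18.5% of all genes, 3 were higher and 3 lower in Model against Ctrl, and library-size scaling called 6 lower. Higher were the DNA sensor Aim2 at 1.79, the endosomal RNA sensor Tlr7 at 1.44 and the kinase Ikbke at 1.16 (adjusted p = 0.0352, 0.0131 and 0.00804), none of them under library-size scaling, and Tlr7 not with the 9 mice (0.0685, in a range from 0.00297 to 0.0897). Lower were the factor Irf5 at -1.03, Mavs, through which Rigi and Ifih1 signal, at -0.71, and the adaptor Ticam1 at -0.66 (adjusted p = 0.011, 0.00579 and 0.0057). Aim2 did not pass without Ctrl 3 or 4 (0.104 and 0.0875) or without Model 2, 3 or 4 (0.0745, 0.0973 and 0.0544), in a range from 0.0136 to 0.104. With YHY, edgeR called 0 of the 16 relative to Model, where 5.63% of all genes were higher and 7.62% lower. At an unadjusted p under 0.05, 3 were higher, and 3 were higher by DESeq2. There Nlrc5 passed without Model 2 or YHY 4 (0.0479 and 0.0387), Tbk1 without YHY 3 (0.0179) and Irf5, lower, without YHY 2 (0.0444), over ranges of 0.0328 to 0.183, 0.0179 to 0.203 and 0.0444 to 0.47. In YHY against Ctrl 6 were higher and 3 lower, where 26.1% and 24.2% of all genes were, against 5 and 4 under library-size scaling and 6 and 1 under upper-quartile scaling.

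Beyond the 41 members, 56 further interferon-stimulated genes were listed and 53 tested. In Model against Ctrl 5 were higher and 10 lower, where 19.6% and 18.5% of all genes were, with a median of -0.11 against 0.04. Library-size scaling gave 1 and 16 there, upper-quartile scaling 8 and 7, and the 10 were 6 without Model 3 or without Model 4. In YHY against Model 5 were higher and 0 lower by edgeR, where 5.63% and 7.62% of all genes were, with a median of 0.38 against 0.02. The 5 were 2 without Model 3, 3 without YHY 3 and 8 without YHY 4. At an unadjusted p under 0.05 the numbers higher and lower were 16 and 0, and by DESeq2 7 and 0. Between YHY and Ctrl 13 were higher and 6 lower, where 26.1% and 24.2% of all genes were, with a median of 0.29 against 0.10. Library-size scaling turned this to 5 and 11, with a median of -0.13, and upper-quartile scaling gave 17 and 3, while the 6 were 3 without Ctrl 1 or without YHY 4. Lower in Model were the interferon-gamma-induced chemokine Cxcl9 at -3.70, the GTPases Gbp6 and Gbp5 at -2.08 and -1.44 and the ubiquitin ligase Dtx3l at -1.53 (adjusted p = 0.0143, 0.0176, 0.0429 and 0.00012), and higher was the helicase Ddx60 at 1.42 (adjusted p = 0.00712). Higher with YHY were Gbp5 at 1.84, Trim34a at 1.67, Gbp9 at 1.17, Trim30a at 1.01 and Mndal at 0.97 (adjusted p = 0.0336, 0.03, 0.0165, 0.0136 and 0.0119). Without Ctrl 1 the calls of Cxcl9, Gbp6 and Gbp5 in Model against Ctrl were lost (adjusted p = 0.0655, 0.106 and 0.129), and without Model 3 that of Gbp6 (0.0503). Gbp5 was also lost there without Ctrl 2 or 3 (0.0694 and 0.0645), Model 2, 3 or 4 (0.0636, 0.089 and 0.0987) or YHY 3 (0.0514), and under upper-quartile scaling (0.0587). In YHY against Model Gbp5 was lost without Ctrl 3 (0.0506), Model 2, 3 or 4 (0.0553, 0.0737 and 0.0788) or YHY 2 or 3 (0.0633 and 0.0652), under library-size scaling (0.0575) and with only the 8 mice compared (0.06), Trim34a without Model 3 or 4 (0.0863 and 0.0771) or YHY 2 or 3 (0.0615 and 0.0543), with only the 8 mice compared (0.0556), with the 9 mice (0.0656) and with a replicate block (0.0614), and Gbp9 without Model 3 (0.0588). Over the alternatives in Model against Ctrl the adjusted p of Cxcl9 ran from 9.25e-05 to 0.0655, of Gbp6 from 0.00465 to 0.106 and of Gbp5 from 0.0138 to 0.129. With YHY that of Gbp5 ran from 0.00484 to 0.0788, of Trim34a from 0.00374 to 0.0863 and of Gbp9 from 0.00161 to 0.0588.

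Other cells of the kidney were described by their markers in the same way. Of B and plasma cell markers 4 of 6 were tested, and Jchain, the joining chain of secreted antibody, fell in Model against Ctrl, at -2.15, and rose in YHY against Model, at 2.63 (adjusted p = 0.0318 and 0.0308). The first of these Jchain calls was lost without Ctrl 1, 2 or 3 (0.0655, 0.0628 and 0.0582) or Model 1, 2 or 3 (0.0776, 0.0915 and 0.0645), with the 9 mice (0.0844) and with a replicate block (0.0537), and the latter without Model 1, 2 or 3 (0.0923, 0.0804 and 0.0789) or YHY 3 (0.164) and with a replicate block (0.111), over ranges of 0.000285 to 0.0915 and 0.000104 to 0.164 for Jchain. The 6 markers summed to 3.42 to 10.8 CPM in Ctrl, 1.80 to 5.0 CPM in Model and 2.71 to 26.9 CPM in YHY, Jchain being the most abundant in all libraries but Model 2. The 3 of 6 neutrophil markers with enough counts were called neither in Model against Ctrl nor with the extract, 0 by edgeR, by DESeq2 or at an unadjusted p under 0.05. Of 7 endothelial markers 2, Flt1 and Egfl7, were higher in Model, at 0.67 and 0.70, both not under library-size scaling, and between YHY and Model edgeR called 0, with 2 at an unadjusted p under 0.05 and 1 by DESeq2, and 1 lower without Model 4 or without YHY 4. In Model against Ctrl, 0 were higher and 2 lower of 6 proximal tubule markers, 1 higher and 2 lower of 5 distal markers, and 2 higher and 0 lower of 5 podocyte markers, beside 19.6% and 18.5% of all genes. The podocyte call of Synpo was lost under library-size scaling (adjusted p = 0.732), with the 9 mice (0.216), with a replicate block (0.069), without Ctrl 1, 2, 3 or 4 (0.138, 0.0904, 0.0966 and 0.0688), Model 1, 2 or 3 (0.196, 0.101 and 0.0509) or YHY 3 (0.0508), in a range from 0.015 to 0.732. The distal call of Aqp2, lower, was lost by DESeq2 (0.0774), under upper-quartile scaling (0.0553) and without Ctrl 1 or 4 (0.0653 and 0.139) or Model 2, 3 or 4 (0.0981, 0.0806 and 0.0725), in a range from 0.000831 to 0.139. Podxl was called lower without Model 1 (0.00775, in a range from 0.00385 to 0.608). Of these 16, edgeR called 0 between YHY and Model, while in each of the 3 lists 2 had an unadjusted p under 0.05, and DESeq2 called 2, 2 and 0. Without YHY 2 edgeR called 2 proximal and 2 distal markers there, without YHY 4 it called 3 proximal and 1 podocyte, without Model 1 it called 1 distal and without Model 4 it called 2 podocyte markers. Proximal tubule sums, with Slc34a1 most abundant, were 3087 to 4945 CPM in Ctrl and 2471 to 3364 CPM in Model. In YHY 1 to 4 they were 1284, 2964, 1846 and 3800 CPM, in the reverse order of the antiviral sums. The Ctrl and Model kidneys were not in full reverse order, nor were the YHY kidneys by the sums of the sensors or of the interferon-gamma class. The part of these cells in the members' results was not tested.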

How the data were processed

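The authors deposited read counts per gene for 12 kidneys, and the comparison tables hold per-mouse signal, a normalised count, that the authors made with DESeq2. Per the submitters' processing notes, reads went through FastQC 0.11.9, Trimmomatic 0.39, HISAT2 2.2.1 on GRCm39, SAMtools 1.12, featureCounts 2.0.1 and DESeq2 1.34.0 in R 4.1.2. The 12 per-mouse columns of the comparison tables, some of whose headers do not match their group, and the authors' fold changes, p-values and pathway tables were held and not used. The authors' group means matched 9 mice: Ctrl 1, 3 and 4, Model 2, 3 and 4, and YHY 1, 2 and 3.

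Counts of all genes were fitted in R 4.3.3 with edgeR 4.0.16: low counts removed by filterByExpr, TMM scaling, a quasi-likelihood test over the 3 groups and Benjamini-Hochberg adjustment, called at an adjusted p under 0.05. DESeq2 1.42.0, the data.table package (1.17.8), Python 3.11.15, numpy 2.4.6 and matplotlib 3.10.9 served the alternatives, tables and figures. The method was tested on simulated data. Each replicate is a separate mouse. The members and lists were chosen with earlier results of these data known. Genes were named by a rule: in each class, up to 8 members past the threshold in Model against Ctrl or YHY against Model by size of change, and the most abundant per length, and up to 5 genes of each further pathway list and comparison. Members named besides these, among them Rsad2, Ifit3, Ifih1, Tap1 and Dhx58, were chosen after their values were seen, as were the markers and the uncalled pathway genes named. One gene of a pathway list in the design is not reported here.

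Alternatives were DESeq2, library-size and upper-quartile scaling, the mitochondrial genome left out, no filter, a stricter filter of 10 counts or more in each sample, the 8 mice compared alone, the 9 mice, a replicate block, the study's limits, and each mouse left out. Total depth was 24415658 to 33276634 counts, and a floor of 3 counts corresponds to 0.0683 to 0.166 CPM. Of the deposited values from 1 to 10 counts, 69.1% were even, and whether both reads of a pair were counted is not stated. Intervals and floors cover counting error only and take each count as independent. The strand setting of the counting is not given in the sources.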

Additional observations from a re-analysis of the deposited data

Results flagged for a closer look

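In groups of 4 mice, 1 mouse was set apart where its gap to the nearest other, divided by the range of the group, was above Dixon's 95% critical value. Over 67 genes and 3 groups each, this held for 11 of 201 groups, and chance alone gives about 1 in 20. No explanation was weighed.

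Among the members, Ifit3 in Model 2 was lowest at 14 CPM, the other Model kidneys lying at 16.4 to 16.6 CPM. Mx1 in YHY 2 was highest at 1.71 CPM, the others at 0.744 to 0.84 CPM. Rsad2 in Ctrl 2 was lowest at 7.89 CPM, the others at 16.2 to 17.8 CPM, and so was Parp14 in Ctrl 2 at 6.62 CPM, the others at 10.6 to 11.3 CPM. Stat2 in Ctrl 4 was lowest at 10.1 CPM, the others at 13.2 to 13.7 CPM. Gbp2 in Model 2 was lowest at 0.143 CPM, the others at 1 to 1.13 CPM.

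Among other genes of the pathway, Adar was highest in Model 2 at 14.8 CPM, the others at 9.68 to 9.83 CPM, and highest in YHY 2 at 24.1 CPM, the others at 15.3 to 15.8 CPM. Samhd1 in Ctrl 2 was lowest at 11.3 CPM, the others at 17.2 to 17.4 CPM. Mavs in Model 1 was highest at 30.6 CPM, the others at 25.8 to 26.5 CPM. Dtx3l in YHY 2 was lowest at 3.32 CPM, the others at 3.72 to 3.76 CPM.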

How the results depend on the processing

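Of 583 values of named members under the alternatives, 518 kept their direction and their side of the threshold, 56 no longer passed it, 3 newly passed it and 6 reversed. The 3 that newly passed belonged to Ifi27 and Igtp in YHY against Ctrl, at -0.25 and -0.43 in the main fit (adjusted p = 0.38 and 0.266). Ifi27 passed, lower, without YHY 3 (0.0182), and Igtp, lower, under library-size scaling (0.0325) and without Ctrl 4 (0.0261). Oas3, Stat2, Gbp2, Irgm1, Xaf1, Irf9 and Rigi kept their calls in Model against Ctrl or YHY against Model in each alternative that gave a value. Where no reason is given, the cause was not tested.

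In Model against Ctrl the members called higher were 3, and 5 under upper-quartile scaling, with at least 10 counts in every sample, with only the 8 mice compared and by the study's limits. The members called lower were 6, and 19 under library size alone, whose median gene lies at -0.39, 3 under upper-quartile scaling, 3 with at least 10 counts in every sample, where 36 members were tested, and 11 by the study's limits, which do not adjust p. In YHY against Model the 6 higher were 10 by DESeq2, 11 with the 9 mice and 14 by the study's limits. In YHY against Ctrl the 10 higher were 4 under library size, and the 2 lower were 5 under library size and 1 with at least 10 counts in every sample. Gbp2, Ifi47, Mx1 and Mx2 gave no value under that filter.

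Leaving out 1 mouse at a time gave 2 to 4 members higher and 2 to 8 lower in Model against Ctrl, 3 to 13 higher and 0 to 0 lower in YHY against Model, and 7 to 12 higher and 2 to 4 lower in YHY against Ctrl. Without Model 1, which stood apart from its group, the counts were 3 and 7, 4 and 0, and 8 and 2. Leaving out Ctrl 4, which also stood apart, gave 2 and 6, 6 and 0, and 7 and 4.

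Rigi in Model against Ctrl reversed to -0.38 under library size, -0.017 without Ctrl 3, -0.029 without Ctrl 4 and -0.028 without Model 2, in a range of -0.029 to 0.16 with 1 mouse left out. Ifi27 in YHY against Model reversed to 0.029 with the 9 mice and 0.058 without YHY 2, in a range of -0.43 to 0.058 with 1 mouse left out.

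Over 12 pairs of equal mouse number across groups, deviations correlated at -0.17 to 0.12 across genes, and over pairs of unequal number at -0.25 to 0.21. These values showed no sign of pairing by number, and they cannot exclude it. With a replicate block the members higher and lower were 2 and 7 in Model against Ctrl, 5 and 0 between YHY and Model, and 9 and 2 in YHY against Ctrl. Depth limits the ligands and the T cell markers, which lie near the floor of 3 counts.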
